A study of Homo sapiens with 12 samples.

Results

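The genes followed here write, copy and remove the methyl mark on cytosine in DNA. They are the dioxygenase genes *TET1*, *TET2* and *TET3*, the DNA methyltransferase genes *DNMT1*, *DNMT3A* and *DNMT3B*, the maintenance cofactor gene *UHRF1* and the thymine DNA glycosylase gene *TDG*. They were chosen by name with their counts in NXP800 against DMSO in these libraries already known, with no threshold, and all 8 were found among the 43236 gene symbols of the count tables. Their changes between NXP800 and DMSO are therefore given as a description, with no test. Where a change is said to pass the threshold, its adjusted p in edgeR's fit over all genes was below 0.05. The libraries came from MNNG/HOS, a human osteosarcoma cell line, here grown without any labelled genetic change and kept for 6 h or 24 h with 300 nM NXP800 or with its solvent DMSO. NXP800 is a small molecule taken by mouth, made in work on the heat shock factor HSF1. Each of the 4 groups held 3 libraries of poly(A) mRNA, all from 1 cell line, so they speak for this line alone.

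In the cell, DNA methylation sits mostly on CpG dinucleotides and has to be copied each time DNA is replicated. UHRF1 binds hemimethylated CpG behind the replication fork and brings in DNMT1, which methylates the new strand, while DNMT3A and DNMT3B place methyl groups on sites that had none. The TET enzymes, which need iron and 2-oxoglutarate, oxidise methylated cytosine, and TDG cuts out the more oxidised forms so that base excision repair can restore plain cytosine. In tumours the pattern of methylation is commonly disturbed, and both writers and TET enzymes are known to be altered. Only mRNA was measured here, and neither methylation nor protein levels of these genes were analysed.

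Between 30810614 and 31947656 read pairs were counted on genes per library. The share that fell on no annotated gene was 6.66 to 8.14% in the 6 h libraries and 2.73 to 3.67% in the 24 h libraries, so the time points also differ in a property of the libraries. The line's mesenchymal character was visible in *VIM*, which encodes vimentin, with group means of 3773 to 5371 CPM (a gene's count relative to its library's total, scaled by TMM, a factor that evens out library makeup), and in *RUNX2*, an osteoblast transcription factor gene, at 22.7 to 37.2 CPM. The osteoblast genes *ALPL* and *COL1A2* were nearly absent, with group means of at most 0.105 and 0.302 CPM. The methods speak in general of independent experiments, but neither they nor the labels say of these libraries that the replicates were separate cultures. Every p-value below therefore measures the spread between these libraries, which may be technical.

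The 8 genes lie on 6 chromosomes (coordinates of GRCh38.p14). *TET1* is at chr10:68560337-68694487 on the plus strand, *TET2* at chr4:105145875-105279803 on the plus strand and *TET3* at chr2:73983631-74135498 on the plus strand. *DNMT1* is at chr19:10133346-10194953 on the minus strand, *DNMT3A* at chr2:25227874-25342590 on the minus strand and *DNMT3B* at chr20:32762385-32809356 on the plus strand. *UHRF1* is at chr19:4903080-4962154 and *TDG* at chr12:103965872-103988874, both on the plus strand. No exon of the 8 overlapped an exon on the opposite strand. Overlap on the same strand was small, at 0.540% of the exonic bases of *DNMT1* (with *S1PR2*), 3.01% of those of *TET3* and 3.44% of those of *TDG*.

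Promoter windows of RefSeq were matched at the main start site (MANE Select) for 7 of the 8 genes, all but *DNMT3B*. *DNMT1* and *TDG* had 1 window each, the others several, up to 6 for *DNMT3A*. Only the window at the main start site was used, so other start sites are not covered below. The 250 bases before the start site are printed for the members whose levels moved most between NXP800 and DMSO, in the direction of the gene, with each CpG in capitals because CpG is the substrate of these very enzymes. *TET1* (chr10:68560087-68560336, plus strand), *TET3* (chr2:73984660-73984909, plus strand), *UHRF1* (chr19:4909251-4909500, plus strand) and *DNMT1* (chr19:10194954-10195203, minus strand) are shown in that order.
TET1: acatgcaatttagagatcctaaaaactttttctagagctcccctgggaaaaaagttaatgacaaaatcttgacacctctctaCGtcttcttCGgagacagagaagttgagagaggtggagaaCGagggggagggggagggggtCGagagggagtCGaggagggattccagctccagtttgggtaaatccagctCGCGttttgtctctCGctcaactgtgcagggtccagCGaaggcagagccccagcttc
TET3: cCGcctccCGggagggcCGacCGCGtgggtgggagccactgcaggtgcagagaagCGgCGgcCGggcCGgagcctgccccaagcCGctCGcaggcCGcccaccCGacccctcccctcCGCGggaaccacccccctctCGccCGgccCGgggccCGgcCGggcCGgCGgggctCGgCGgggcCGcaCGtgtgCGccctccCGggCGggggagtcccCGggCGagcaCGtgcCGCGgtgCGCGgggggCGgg
UHRF1: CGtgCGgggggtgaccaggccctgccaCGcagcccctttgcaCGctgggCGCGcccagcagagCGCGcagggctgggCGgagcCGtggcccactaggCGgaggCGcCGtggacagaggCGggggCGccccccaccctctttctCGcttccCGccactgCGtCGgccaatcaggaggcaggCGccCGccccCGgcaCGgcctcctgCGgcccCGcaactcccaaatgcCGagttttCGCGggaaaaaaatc
DNMT1: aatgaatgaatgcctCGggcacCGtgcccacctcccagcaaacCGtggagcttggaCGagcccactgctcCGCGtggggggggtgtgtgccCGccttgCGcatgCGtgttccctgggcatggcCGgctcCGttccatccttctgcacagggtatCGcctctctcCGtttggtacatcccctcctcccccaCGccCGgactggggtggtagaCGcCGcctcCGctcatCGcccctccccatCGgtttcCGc

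The *TET1* window was the one with the fewest CpG among the 7. Over the 300 bases from 250 before to 50 after the start site it held 10 CpG, fewer than the median of 14 over all 34941 promoter windows, and 43.7% of windows had fewer. The *TET3* window held 45 CpG, more than 96.5% of windows, and that of *DNMT3A* held 46, more than 97.1%. In between were *UHRF1* with 36, *TET2* with 35, *DNMT1* with 30 and *TDG* with 22 CpG. *TET1* and *TET3*, the members that moved furthest down and up with NXP800 at 6 h, held 10 and 45 CpG. *UHRF1*, which moved furthest down at 24 h, held 36. A link between promoter CpG and the change with NXP800 was not tested.

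3 motifs, chosen after the values of the genes were seen, were searched on both strands of the windows. The E2F motif was sought in the forms TTTCCCGC, TTTCGCGC, TTTGCCGC and TTTGGCGC. It was present in 3.30% of all windows and in 2 of the 7 member windows, those of *UHRF1* and *DNMT1*. Each form holds a CpG, and these windows held 36 and 30 CpG against a median of 14 over all windows. The 3.30% is therefore not a like background for them. In *UHRF1* the form TTTCCCGC lay on the opposite strand, starting 14 bases before the start site, within the stretch printed above. In *DNMT1* the form TTTCGCGC lay on the opposite strand from 2 bases before the start site. The core shared by C/EBP and ATF dimers (TGATGNAA) was in 3.62% of windows and the heat shock element, as alternating GAA and TTC units with 2 bases between them, in 0.489%, and 0 of the 7 member windows held either. A match is a run of letters and not a measured binding site, and its absence says nothing about the factors.

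Per kilobase of canonical transcript, *DNMT1* was the most abundant of the 8 mRNAs and *TET1* the least in every group. In DMSO at 6 h the mean level was 69.6 CPM per kb for *DNMT1*, 40.2 for *UHRF1*, 25.9 for *TDG*, 5.95 for *DNMT3B*, 2.78 for *TET3*, 1.90 for *TET2*, 1.46 for *DNMT3A* and 0.552 for *TET1*. The libraries of neighbours in this order did not overlap, and the order was the same in DMSO at 24 h, from 78.9 for *DNMT1* down to 0.491 for *TET1*, again without overlap. In NXP800 at 6 h, *UHRF1* at 24.6 and *TDG* at 25.6 CPM per kb overlapped. In NXP800 at 24 h, overlaps joined *UHRF1* at 17.9 with *TDG* at 17.2, *DNMT3B* at 5.29 with *TET3* at 5.02, and *DNMT3A* at 1.80 with *TET2* at 1.60. These levels use 1 transcript length per gene and are blind to a change of isoform.

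Of the dioxygenases, *TET1* was the member with the largest difference between NXP800 and DMSO. At 6 h its level was 5.39, 5.52 and 5.01 CPM in DMSO replicates 1, 2 and 3 and 0.798, 0.734 and 0.921 CPM in NXP800 replicates 1, 2 and 3. The groups were far apart, and the NXP800 libraries rested on 24 to 30 counts each, against 165 to 175 in DMSO. The log2 fold change was -2.69 (SE 0.15), a level 6.46-fold lower. At 24 h the level was 4.55, 5.11 and 4.50 CPM in DMSO and 2.38, 2.48 and 2.65 CPM in NXP800. All NXP800 libraries were again below all DMSO libraries, but by less. The log2 fold change was -0.91 (SE 0.14), or 1.89-fold lower. The NXP800 libraries at 24 h, with 72 to 83 counts, were all above those at 6 h.

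*TET3* was the member that was higher with NXP800 at both times. At 6 h its level was 38.0, 29.1 and 33.4 CPM in DMSO and 55.1, 47.1 and 49.8 CPM in NXP800. At 24 h it was 41.3, 37.6 and 40.5 CPM in DMSO and 60.7, 65.2 and 55.9 CPM in NXP800. The groups did not overlap at either time, and the log2 fold changes were close, 0.60 (SE 0.093) at 6 h and 0.61 (SE 0.092) at 24 h, or 1.51-fold and 1.52-fold.

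*TET2*, the dioxygenase gene that is often mutated in blood cancers, was near its DMSO level at both times. At 6 h it was at 19.0, 17.5 and 18.05 CPM in DMSO and 20.6, 20.9 and 17.3 CPM in NXP800, with overlapping groups and a log2 fold change of 0.11 (SE 0.097). Its 24 h levels were 18.3, 18.1 and 17.0 CPM in DMSO and 14.7, 17.3 and 13.9 CPM in NXP800. NXP800 replicate 2 lay within the DMSO range there, and the log2 fold change of -0.22 (SE 0.099) did not pass the threshold. It passed at the same -0.22 once replicates of like number were fitted as a block, and at -0.29 without NXP800 24 h replicate 2.

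**Figure D1:**
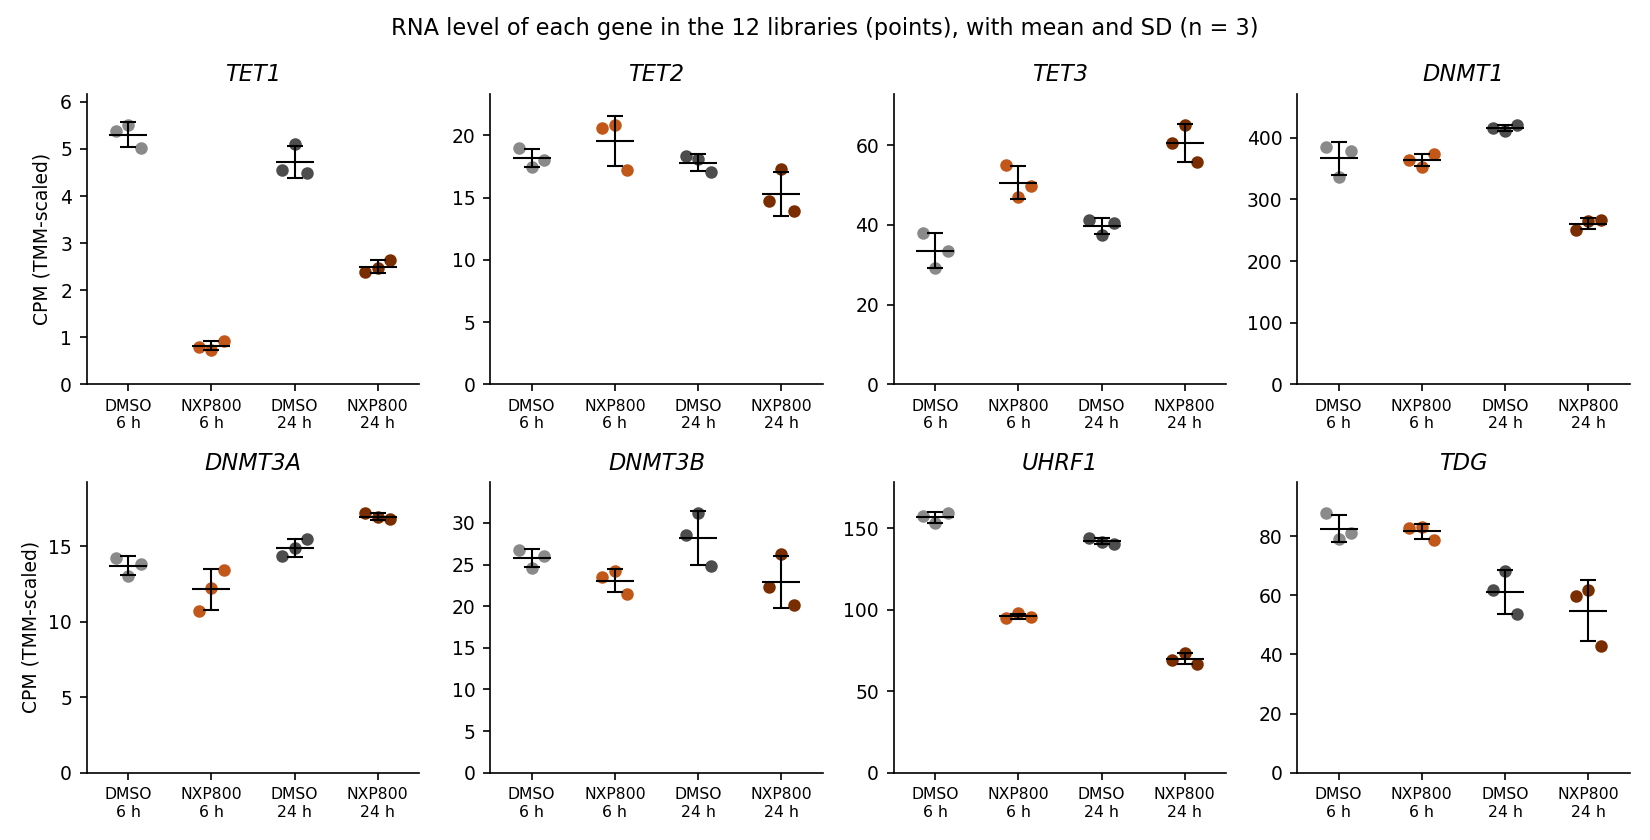
Level of each of the 8 genes in every library, in TMM-scaled CPM on an axis of its own per gene, for DMSO and NXP800 at 6 h and 24 h, with points for the 3 libraries of a group and bars for their mean and SD. *TET1* in NXP800 at 6 h lies at 0.734 to 0.921 CPM, below all other *TET1* libraries, while *TET3* in NXP800 lies above DMSO at both times.

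With *TET1* lower and *TET3* higher, the makeup of the TET transcripts moved with NXP800. Their summed level was 5.23 ± 0.441 CPM per kb (SD, n = 3) in DMSO and 6.33 ± 0.419 in NXP800 at 6 h, and 5.65 ± 0.144 and 6.88 ± 0.557 at 24 h, with all NXP800 libraries above all DMSO libraries at each time. *TET1* made up 10.6 ± 1.14% of it in DMSO at 6 h and 1.35 ± 0.208% in NXP800. At 24 h its share was 8.70 ± 0.790% in DMSO and 3.80 ± 0.466% in NXP800. *TET3* went from 53.0 ± 2.65% to 66.4 ± 2.66% at 6 h and from 58.4 ± 1.87% to 73.0 ± 0.744% at 24 h, and so was the main TET transcript in all 4 groups. *TET2* made up the rest, from 36.3% in DMSO at 6 h to 23.2% in NXP800 at 24 h.

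Among the writers, *DNMT1* was lower with NXP800 at 24 h and near its DMSO level at 6 h. At 6 h its level was 386, 336 and 379 CPM in DMSO and 365, 353 and 374 CPM in NXP800. The NXP800 libraries lay inside the DMSO range, and the log2 fold change was -0.012 (SE 0.063). With the replicate block and a correction for GC content and length it was 0.12 and passed as higher. At 24 h it was 416, 411 and 421 CPM in DMSO and 250.9, 265 and 267 CPM in NXP800. Here the groups were far apart, with little spread in either, and the log2 fold change was -0.67 (SE 0.063), or 1.60-fold lower.

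The de novo methyltransferase genes stood nearer to DMSO. *DNMT3A* was at 14.3, 13.1 and 13.9 CPM in DMSO and 10.7, 12.3 and 13.4 CPM in NXP800 at 6 h, with overlapping groups. The log2 fold change was -0.17 (SE 0.092), and it passed the threshold without NXP800 6 h replicate 3 (-0.25). The 24 h levels were 14.4, 14.9 and 15.5 CPM in DMSO and 17.2, 16.9 and 16.8 CPM in NXP800. These groups did not overlap, but the log2 fold change of 0.19 (SE 0.090) did not pass the threshold, which it did with the replicate block (0.19) and with library size alone as the scale (0.28).

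*DNMT3B* was at 26.7, 24.6 and 26.1 CPM in DMSO and 23.6, 24.2 and 21.5 CPM in NXP800 at 6 h. All NXP800 libraries were below all DMSO libraries by a narrow margin, and the log2 fold change of -0.16 (SE 0.10) passed the threshold only with the replicate block, at -0.16. At 24 h it was at 28.6, 31.2 and 24.8 CPM in DMSO and 22.3, 26.3 and 20.1 CPM in NXP800. NXP800 replicate 2 lay above DMSO replicate 3, and the log2 fold change of -0.30 (SE 0.10) passed. It no longer did without DMSO 24 h replicate 2 (-0.22), NXP800 24 h replicate 1 (-0.28) or NXP800 24 h replicate 3 (-0.21), with library size alone as the scale (-0.21), with the 24 h libraries alone (-0.28), or at a threshold of 0.01.

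The summed level of the DNMT genes followed *DNMT1*. It was 77.0 ± 5.41 CPM per kb in DMSO and 75.6 ± 1.70 in NXP800 at 6 h, and 87.0 ± 0.310 and 56.5 ± 1.80 at 24 h (SD, n = 3 each). *DNMT1* made up 90.4, 91.2, 90.7 and 87.5% of it in these groups, *DNMT3B* 7.74, 7.05, 7.48 and 9.34%, and *DNMT3A* 1.89, 1.71, 1.82 and 3.19%.

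**Figure D2:**
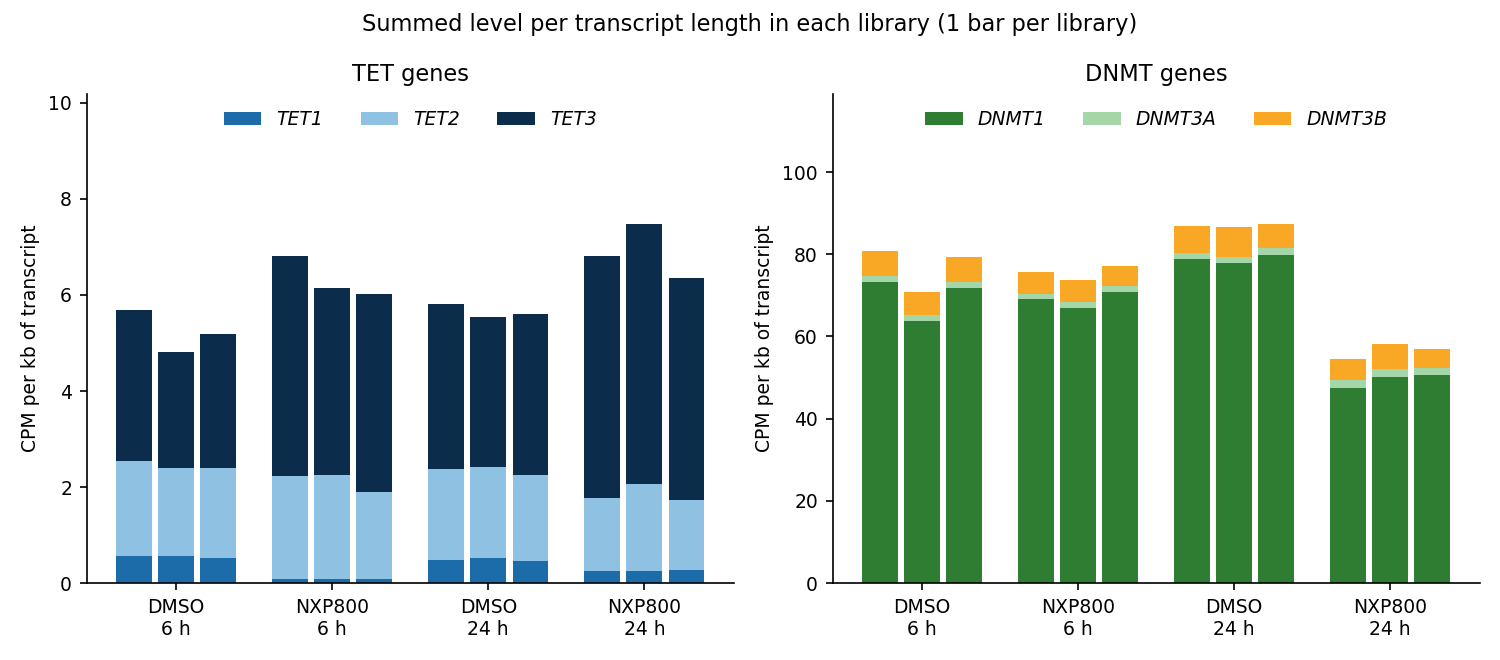
Summed level of the TET genes (left) and of the DNMT genes (right) in CPM per kb of transcript, with 1 stacked bar per library and 1 colour per gene. The *TET1* segment is 10.6% of the bar in DMSO and 1.35% in NXP800 at 6 h on average, and the *DNMT1* segment is 87.5% to 91.2% of the DNMT bar in every group.

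*UHRF1* was lower with NXP800 at both times and stood further from DMSO at 24 h. Its level at 6 h was 157, 153 and 159 CPM in DMSO and 94.8, 97.7 and 95.7 CPM in NXP800. At 24 h it was 144, 141 and 140 CPM in DMSO and 69.0, 73.5 and 66.9 CPM in NXP800. The replicates were tight and the groups far apart at both times, with log2 fold changes of -0.70 (SE 0.054), or 1.63-fold lower, and -1.02 (SE 0.055), or 2.03-fold lower.

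*TDG*, which acts downstream of the TET enzymes, did not pass at either time. At 6 h it was at 87.8, 78.9 and 81.0 CPM in DMSO and 82.9, 83.1 and 78.7 CPM in NXP800, and the log2 fold change was -0.017 (SE 0.11). By 24 h the levels were 61.7, 68.3 and 53.6 CPM in DMSO and 59.7, 61.8 and 42.9 CPM in NXP800. Replicate 3 was the lowest in both of these groups, and the log2 fold change was -0.16 (SE 0.11), which passed with the replicate block, at -0.17. With the block and offsets for GC content and length it passed at both times, at -0.13 and -0.17.

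By the threshold of an adjusted p below 0.05 over the 15979 genes tested, 1 member was higher and 2 were lower at 6 h, namely *TET3*, and *TET1* and *UHRF1*. At 24 h *TET3* was higher and *TET1*, *DNMT1*, *DNMT3B* and *UHRF1* were lower. Of all genes tested, 52.8% passed at 6 h, 25.0% as higher and 27.8% as lower, and 56.0% passed at 24 h, 27.5% as higher and 28.6% as lower. The median log2 fold change of the 8 was -0.089 at 6 h and -0.26 at 24 h, beside -0.046 and -0.0033 over all genes tested. The libraries of NXP800 and DMSO did not overlap for 4 members at 6 h and 5 at 24 h, against 62.0% and 59.1% of all genes. With the replicate block all 8 members passed at 24 h, 2 higher and 6 lower, where 65.2% of all genes passed. Since the genes were listed with these contrasts known, nothing is read from these counts.

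**Figure D3:**
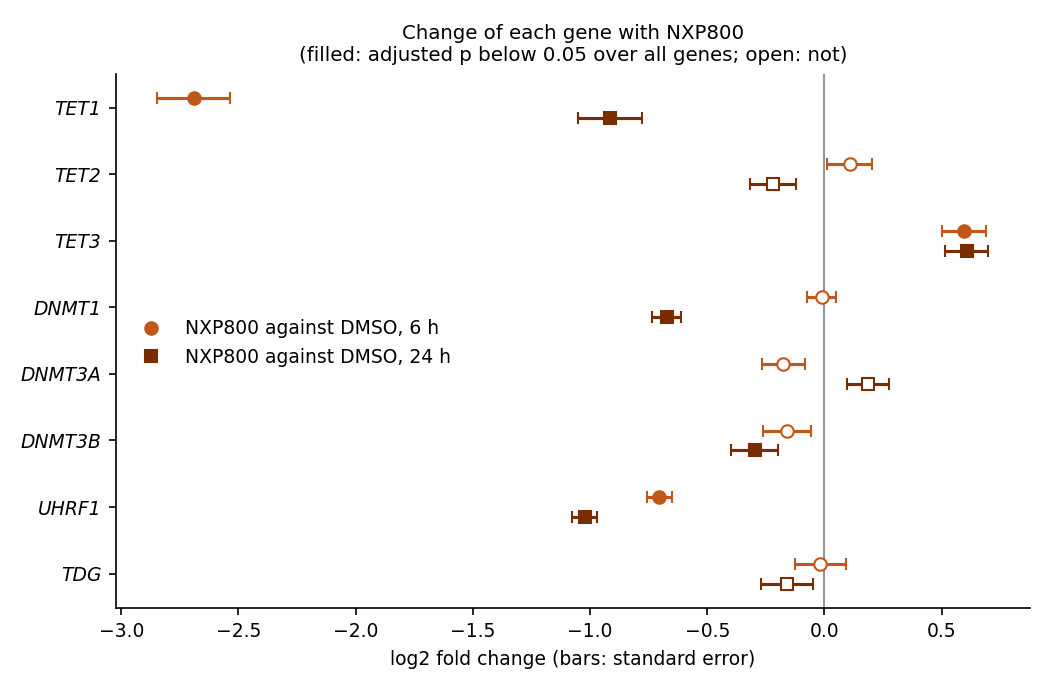
Log2 fold change of NXP800 against DMSO for the 8 genes at 6 h and 24 h, with bars for 1 SE from the fit over all libraries and a line at 0. Filled symbols passed the threshold and open ones did not. *TET1* lies at -2.69 at 6 h and -0.91 at 24 h, *TET3* at 0.60 and 0.61, and *DNMT1* at -0.012 and -0.67.

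The change with NXP800 differed between the time points in 4 members, 2 upward and 2 downward, beside 25.8% of all genes tested. Of those genes, 46.6% were upward, but 59.6% when library size alone set the scale. The difference, as the log2 fold change at 24 h minus that at 6 h, was 1.78 (SE 0.21) for *TET1*, -0.66 (SE 0.089) for *DNMT1*, 0.36 (SE 0.13) for *DNMT3A* and -0.32 (SE 0.077) for *UHRF1*. *TET1* was thus nearer to DMSO at 24 h, whereas *DNMT1* and *UHRF1* were further from it. Time with NXP800 and the set of libraries cannot be told apart in this difference. The difference for *DNMT3A* lost its call when any 1 library was left out (0.28 to 0.39), except for NXP800 6 h replicate 3, without which it was 0.44. It was 0.011 (SE 0.13) for *TET3*, -0.14 (SE 0.14) for *DNMT3B* and -0.14 (SE 0.16) for *TDG*. *TET2* had a difference of -0.33 (SE 0.14), which passed with the replicate block, at -0.33, and without NXP800 6 h replicate 3 (-0.41) or NXP800 24 h replicate 2 (-0.43).

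The rule that listed the genes did not set the DMSO groups against each other, so their difference was tested. The same DMSO libraries entered the contrasts known at the listing, so this test is not fully independent of it. Of the 8, 4 passed edgeR's quasi-likelihood test between DMSO at 24 h and at 6 h, 2 higher and 2 lower, where 41.6% of all genes did, 21.0% higher and 20.6% lower. The DMSO libraries of the time points did not overlap for 4 members, *DNMT1*, *DNMT3A*, *UHRF1* and *TDG*, against 52.1% of all genes. *TDG* was lower at 24 h by a log2 change of -0.43 (SE 0.11, adjusted p = 0.00541), with all 24 h libraries below all 6 h libraries, and kept its call in every alternative fit. *UHRF1* was lower by -0.14 (SE 0.054, adjusted p = 0.0443), *DNMT1* higher by 0.18 (SE 0.063, adjusted p = 0.0293) and *TET3* higher by 0.25 (SE 0.094, adjusted p = 0.0443). *UHRF1* lost its call when any 1 of the 6 DMSO libraries was left out. *TET3* lost it without DMSO 6 h replicate 2 or 3 or DMSO 24 h replicate 1 or 3, and *DNMT1* without DMSO 6 h replicate 2 or DMSO 24 h replicate 1 or 3. With library size alone as the scale both lost it, at 0.10 for *TET3* and 0.034 for *DNMT1*. The others did not pass, with adjusted p-values of 0.309 for *TET1* (-0.17), 0.839 for *TET2* (-0.028), 0.312 for *DNMT3A* (0.12) and 0.331 for *DNMT3B* (0.13). Of the genes called, 50.5% were higher at 24 h, but 26.5% when library size alone set the scale, which also moved the median of all genes from -0.0035 to -0.15. Hours in culture and the difference between the 2 sets of libraries cannot be told apart.

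For each member, the 3 genes whose log2 CPM followed it most closely over the 12 libraries were sought among 11885 genes, by the root mean square difference after centring each gene on its own mean. For *TET1* they were *HSPA8* (0.222), the gene of the constitutive HSP70 chaperone, *PIK3C2B* (0.242), a lipid kinase gene, and *LPCAT1* (0.264), a phospholipid acyltransferase gene. They were picked over these same libraries, so a pattern like that of *TET1* follows from the choice. Their log2 fold changes at 6 h and 24 h were -2.44 and -1.22 for *HSPA8*, -2.69 and -1.24 for *PIK3C2B* and -2.00 and -1.04 for *LPCAT1*. The root mean square differences were larger than for any other member. *TET1* also had the largest change with NXP800 and the fewest counts, so these differences do not show whether its match is less close.

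For *UHRF1* the nearest gene was *CLSPN* (0.0654), then *ATP6V1A* and *MMS22L* (0.0958 each). For *DNMT1* they were *UTP20* (0.0810), *NDE1* (0.0881) and *MCM7* (0.0931). Near *DNMT3A* were *MED29* (0.0759) and *GPATCH3* (0.0838). For *TET3* they were *AKIRIN2* (0.0901), *AFDN* (0.0910) and *CCDC97* (0.0919), and for *TET2* *RIC1* (0.0688), *DHX35* (0.0804) and *SFT2D3* (0.0805). *SLC39A9* (0.0765), *LIN52* (0.0798) and *C19orf47* (0.0838) were nearest to *DNMT3B*, and *DENND1B* (0.0765), *PIGW* (0.0980) and *LCORL* (0.109) to *TDG*. All of these were picked over these same libraries, so their likeness to the member follows from the choice. Within the set, *TET2* and *DNMT3B* were nearest to each other (0.167), while *TET1* was 0.844 from its nearest member, *UHRF1*.

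The wider pathway was read from 8 lists of related genes. Of 94 genes listed, 77 were tested, and 4 rose and 47 fell with NXP800 at 6 h (median log2 fold change -0.32), while 8 rose and 51 fell at 24 h (median -0.37). Over all genes 25.0% rose and 27.8% fell at 6 h, and 27.5% and 28.6% at 24 h. Adjusted p-values of the listed genes are those of edgeR's quasi-likelihood test over all genes tested. The NXP800 and DMSO libraries of each gene named with a p-value did not overlap. These genes had the largest called rise or fall of lists written with earlier results known, which favours such a gap. Over all genes tested, the libraries did not overlap for 62.0% at 6 h and 59.1% at 24 h.

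Most partners of maintenance methylation fell with NXP800, as *UHRF1* did. Of 10 tested, 7 fell at both times and 3 did not pass at 6 h, and 1 rose at 24 h, with medians of -0.43 and -0.85. With the replicate block 1 rose at 6 h too. At 6 h *EHMT2*, a histone methyltransferase gene, had the largest fall, from 78.7 ± 1.09 to 37.7 ± 1.46 CPM (log2 fold change -1.06, SE 0.10, adjusted p = 3.71e-07). At 24 h it was *LIG1*, the DNA ligase that joins lagging strand fragments, from 95.8 ± 7.92 to 27.8 ± 3.02 CPM (-1.79, SE 0.081, adjusted p = 9.13e-11). The gene that rose was *ZBTB24*, which encodes a zinc finger protein whose loss causes an immunodeficiency with hypomethylated centromeres (0.31, SE 0.079, adjusted p = 0.00335). The list holds genes of DNA replication such as *LIG1*, so it is not separate from the S phase genes below. A fall of the partners apart from that of S phase genes was not tested.

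Genes of S phase also fell. Of 19 tested, 15 fell and 0 rose at 6 h, and 18 fell and 0 rose at 24 h, with medians of -0.50 and -0.81. *CCNE2*, the gene of cyclin E2, fell from 48.4 ± 2.26 to 25.8 ± 3.77 CPM at 6 h (-0.91, SE 0.13, adjusted p = 1.51e-05), and *TYMS*, the gene of thymidylate synthase, from 645 ± 27.4 to 176 ± 12.8 CPM at 24 h (-1.87, SE 0.068, adjusted p = 1.17e-11). The summed level of the 19 was 4127 to 4256 CPM in DMSO and 3167 to 3266 CPM in NXP800 at 6 h, and 4299 to 4493 CPM and 2306 to 2536 CPM at 24 h. It thus moved with *UHRF1* at both times and with *DNMT1* at 24 h, and its part in their levels was not tested. In bulk RNA, fewer cells in S phase and less of these mRNAs per cell cannot be told apart.

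Enzymes that make or use 2-oxoglutarate, succinate and fumarate, the cosubstrate of the TET enzymes and the products known to inhibit them, fell as well. Of 14 tested, 12 fell at 6 h and 13 at 24 h, and 0 rose at either time, with medians of -0.32 and -0.46. With 1 library left out, 10 to 11 fell at 6 h and 11 to 13 at 24 h, and 0 rose. *OGDH*, a subunit gene of the 2-oxoglutarate dehydrogenase complex, fell from 110 ± 5.67 to 55.6 ± 4.46 CPM at 6 h (-0.99, SE 0.088, adjusted p = 1.42e-07). *D2HGDH*, whose enzyme turns D-2-hydroxyglutarate into 2-oxoglutarate, had the largest fall at 24 h (-0.68, SE 0.16, adjusted p = 0.00174). The list holds genes that supply 2-oxoglutarate and genes that consume it.

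Of 11 base excision repair genes, 4 fell and 0 rose at 6 h, and 4 fell and 1 rose at 24 h, with medians of -0.15 and -0.093. With the replicate block 2 rose and 5 fell at 6 h and 2 rose and 4 fell at 24 h, and without DMSO 6 h replicate 2, 1 rose at 6 h. *PARP1*, which senses strand breaks, fell from 412 ± 5.69 to 246 ± 16.9 CPM at 6 h (-0.74, SE 0.075, adjusted p = 5.61e-07). *NEIL3*, a DNA glycosylase gene, fell from 16.5 ± 0.682 to 6.91 ± 0.785 CPM at 24 h (-1.26, SE 0.11, adjusted p = 5.98e-08). *SMUG1*, a uracil DNA glycosylase gene, rose at 24 h (0.33, SE 0.090, adjusted p = 0.00476).

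The CXXC domain list holds proteins that bind unmethylated CpG, with the TET partner *OGT*. Of 9 tested, 6 fell and 0 rose at each time, with medians of -0.45 and -0.31. With 1 library left out, 5 to 7 fell at 6 h and 4 to 5 at 24 h. At 24 h 1 rose with the replicate block and without DMSO 24 h replicate 2 or NXP800 24 h replicate 3, and 2 fell with library size alone as the scale. *CXXC5*, which encodes a CXXC zinc finger protein, fell from 53.8 ± 4.12 to 21.0 ± 1.53 CPM at 6 h (-1.36, SE 0.11, adjusted p = 6.74e-08). *CXXC4* had the largest fall at 24 h, from a low level of 1.07 ± 0.233 to 0.396 ± 0.217 CPM (-1.43, SE 0.33, adjusted p = 0.00148).

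Genes of the methyl donor cycle, which makes S-adenosylmethionine, the methyl source of the DNMT enzymes, rose and fell in shares near those of all genes. Of 11 listed, 7 passed the filter on low counts, and *MTAP* and *GNMT* had 0 counts in every library. Of the 7 tested, 2 rose and 2 fell at each time, with medians of 0.13 and 0.014. At 6 h 1 fell without DMSO 6 h replicate 2 or NXP800 6 h replicate 3, and at 24 h 1 rose without DMSO 24 h replicate 1 or 3. *NNMT*, whose enzyme spends S-adenosylmethionine on nicotinamide, rose from 15.2 ± 1.99 to 44.6 ± 4.48 CPM at 6 h (1.56, SE 0.096, adjusted p = 2.6e-09) and from 15.8 ± 0.541 to 25.9 ± 0.398 CPM at 24 h (0.72, SE 0.096, adjusted p = 9.89e-06). *MAT2A*, which makes S-adenosylmethionine, fell from 363 ± 20.7 to 208 ± 23.2 CPM at 6 h (-0.81, SE 0.093, adjusted p = 2.52e-06). *AHCY*, which clears S-adenosylhomocysteine, had the largest fall at 24 h (-0.58, SE 0.081, adjusted p = 1.57e-05).

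Among 7 readers of methylated CpG, 2 rose and 1 fell at 6 h and 4 rose and 1 fell at 24 h, with medians of -0.13 and 0.16. With the replicate block 3 rose and 3 fell at 6 h and 4 rose and 2 fell at 24 h. Those that fell were also 2 without NXP800 6 h replicate 1 at 6 h, and without DMSO 24 h replicate 2 or NXP800 24 h replicate 1 at 24 h. *ZBTB38* rose (0.67, SE 0.092, adjusted p = 1.48e-05) and *ZBTB4* fell (-0.57, SE 0.083, adjusted p = 2.91e-05) at 6 h. At 24 h *MBD1* rose from 59.9 ± 2.89 to 89.6 ± 7.86 CPM (0.58, SE 0.072, adjusted p = 4.32e-06), and *MBD3*, a subunit gene of the NuRD repressor complex, fell (-0.27, SE 0.069, adjusted p = 0.00347).

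Germline genes that are commonly kept silent by promoter methylation were not detected above a few counts in any group. Of the 12 listed, 0 passed the filter on low counts, and the highest count of any of them in a library was 8, for *SYCP3* in NXP800 at 6 h. Between 8 and 10 of them had 0 counts in all 3 libraries of a group, which allows a level of up to 0.0939 to 0.0974 CPM per library (3 counts over the unscaled library total, counting error only). A rise within that limit was not detectable at this depth.

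**Figure D4:**
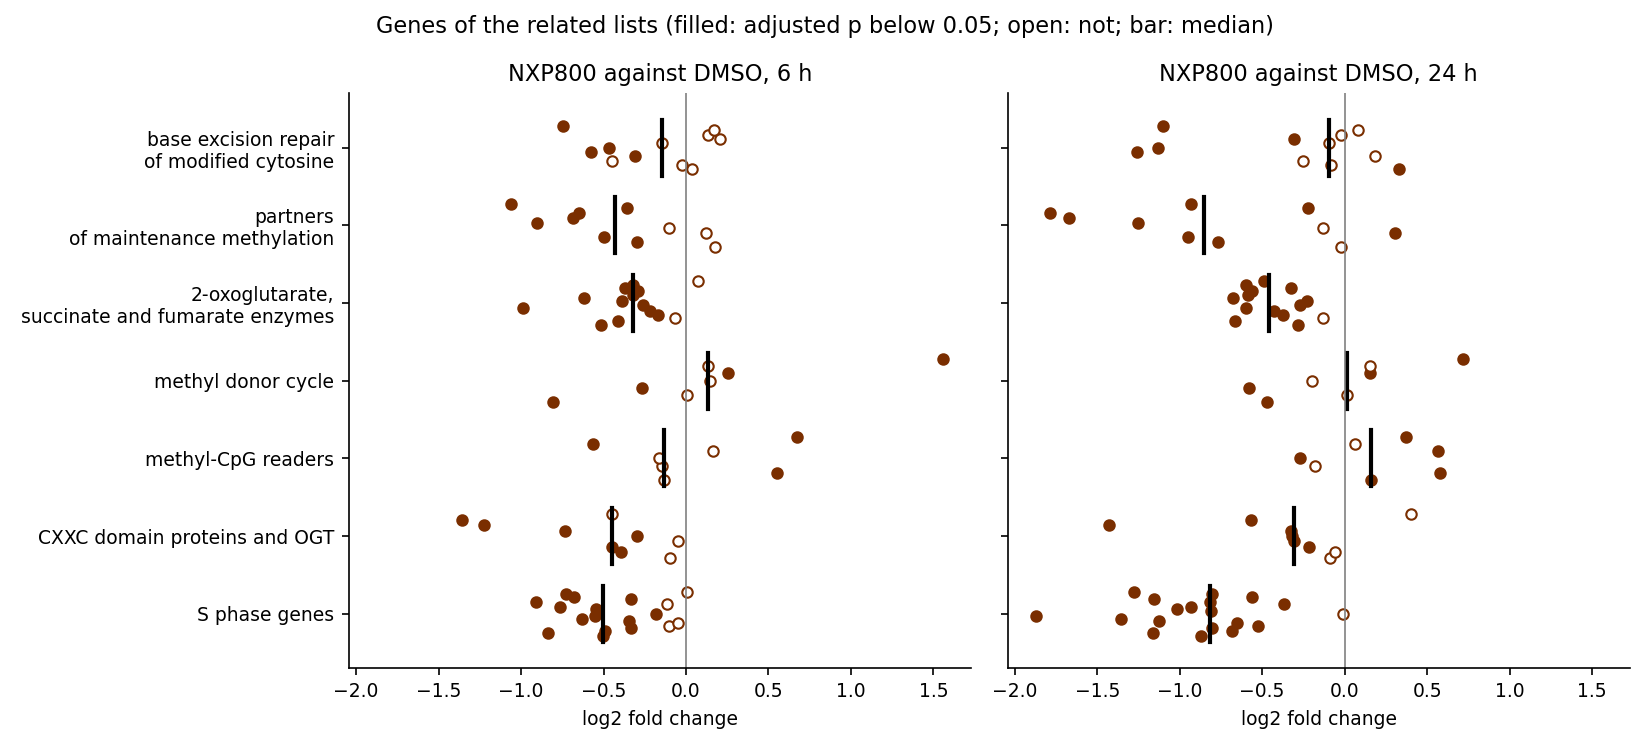
Log2 fold change of NXP800 against DMSO at 6 h and 24 h for every tested gene of the related lists, 1 row of points per list, filled where the gene passed the threshold, with the list's median as a bar and a line at 0. The germline list has no tested gene and is not drawn. The S phase genes and the partners of maintenance methylation lie mostly below the line, with medians of -0.81 and -0.85 at 24 h.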

How the data were processed

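Poly(A) mRNA of MNNG/HOS cells was measured by strand-specific paired-end sequencing in 12 libraries, 3 for each of DMSO and 300 nM NXP800 at 6 h and 24 h. The deposited values are raw read counts per gene symbol. Per the methods and processing notes, the authors used fastp 0.20.1 for trimming, STAR 2.7.5a for alignment to hg38, and htseq-count 0.12.4 with the RefSeq annotation of GRCh38.p14. The strand setting and counting mode are not given in the sources used here, and a wrong or missing strand setting would mix overlapping genes. Rows that name no gene (no feature 2.73 to 8.14%, ambiguous 2.10 to 2.43%, several alignments 1.86 to 3.37% of read pairs) entered neither library sizes nor tests.

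The analysis ran in edgeR 4.0.16 (R 4.3.3, limma 3.58.1). The filter filterByExpr kept 15979 of 43236 symbols and all 8 members. TMM scaling (factors 0.918 to 1.05) and the quasi-likelihood test were used in 1 model of the 4 groups, and p-values were adjusted by Benjamini-Hochberg over all genes tested, with a call at an adjusted p below 0.05. The common dispersion was 0.00723. CPM values use TMM-scaled library sizes, and levels per kb divide by the length of the GENCODE canonical transcript. The scripts were tested on simulated counts. Counting error weighs most for *TET1*, with 24 to 30 counts in NXP800 at 6 h. Its part in the spread of the members was not computed. Libraries of a group differed by more than sampling noise (7.36 to 26.4 as chi-square over its degrees of freedom), so no pair of files was taken for 1 library deposited again.

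The members and the lists of related genes were chosen with earlier results of these data known. Named genes were the 8 members, in each related list the called gene with the largest rise and the largest fall at each time, and for each member the 3 genes of nearest pattern whose mean log2 CPM was 1 or more, of which 1 is not reported here. The replicate numbers in the titles pair NXP800 with DMSO libraries within a time point. Deviations from the group means had an r across genes of 0.160 to 0.329 where the numbers matched and of -0.268 to 0.0580 where they did not. The numbers are the only label of this pairing, and the main model left it out. Alternatives were DESeq2 (version 1.42.0) and its size factors, library size only, other filters, the libraries of 1 time point or treatment alone, the replicate block without and with offsets for GC content and length, a threshold of 0.01, and leaving out each library. GC content and length were known for 14516 of the genes tested (90.8%). Promoter windows are those of RefSeq for GRCh38.p14.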

Additional observations from a re-analysis of the deposited data

Results flagged for a closer look

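The groups hold 3 libraries each, so no library was tested for standing apart from its group. The results given here are those whose change with NXP800 differed between 24 h and 6 h in a test of that difference, in log2 units as 24 h minus 6 h. Among the listed methylation genes, whose choice rested on the same contrasts, the differences were 1.78 for *TET1*, -0.66 for *DNMT1*, 0.36 for *DNMT3A* and -0.32 for *UHRF1*, and they are a description.

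Among the named genes of the related lists, 3 had a larger value at 24 h, namely *CXXC5* (0.79, adjusted p = 0.00162), *ZBTB4* (0.63, adjusted p = 0.00097) and *OGDH* (0.39, adjusted p = 0.027), by edgeR's quasi-likelihood test. The other 5 had a smaller one. They were *TYMS* (-1.32, adjusted p = 2.4e-07) and *LIG1* (-1.14, adjusted p = 3.66e-06), a gene of nucleotide supply and one of DNA ligation, *NNMT* (-0.84, adjusted p = 0.0003), *NEIL3* (-0.68, adjusted p = 0.0027) and *PARP1* (-0.36, adjusted p = 0.0209). These genes were named for the largest rise or fall at 6 h or at 24 h, a choice that favours a difference between the times, so the p-values are no independent evidence of one. Of all genes tested 25.8% passed this test. Of those genes 46.6% had a larger value at 24 h, and 59.6% when library size alone set the scale.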

How the results depend on the processing

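*TET1*, *TET3* and *UHRF1* at both times and *DNMT1* at 24 h kept their direction and their call under all 15 alternatives each, over ranges of -2.79 to -2.62 and -0.96 to -0.83 for *TET1*, 0.50 to 0.69 and 0.57 to 0.70 for *TET3*, -0.72 to -0.56 and -1.04 to -0.93 for *UHRF1* and -0.69 to -0.58 for *DNMT1*. The differences between the time points of *TET1*, *DNMT1* and *UHRF1* did so under 20. Of 504 values of members under an alternative, 42 lost and 15 gained the threshold with the same sign, and 23 changed sign, of which 1 (*DNMT1* at 6 h with the block and offsets) also passed. The cause was not tested. Depth limits *TET1* with NXP800 at 6 h and the germline genes.

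At 6 h, *DNMT1* turned from -0.012 to 0.0033 with DESeq2's size factors, 0.0044 with library size only, 0.12 with the replicate block and offsets for GC content and length, 0.0046 with DESeq2's Wald test and 0.020 with the 6 h libraries alone, and ran from -0.072 to 0.024 with 1 library left out. *TDG* at 6 h turned to 0.015 with the 6 h libraries alone and ran from -0.049 to 0.027. The block with offsets turned *TET2* (-0.010) and *MBD3* (0.031) at 6 h and the difference of *TET3* (-0.041). With 1 library left out the difference ran from -0.089 to 0.10 for *TET3* and from -0.24 to 0.0074 for *TDG*, *ZBTB4* at 24 h from -0.00040 to 0.14, and *TET2* between the DMSO groups from -0.054 to 0.0047. Library size only turned *DNMT3A* (-0.027) and *DNMT3B* (-0.017) between the DMSO groups.

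Members called higher were 2 at 6 h with the block and offsets, and 2 at 24 h with library size only, the replicate block, and the block with offsets. In the difference they were 1 with DESeq2's size factors, no filter or a threshold of 0.01, and 1 to 2 with a library left out. Between the DMSO groups they were 0 with library size only or a threshold of 0.01, 1 with no filter, at least 10 counts in every library or the DMSO libraries alone, and 0 to 2 with a library left out. Members called lower there were 1 with no filter, a threshold of 0.01 or any library left out. Genes of the related lists called higher at 6 h were 9 with the replicate block, 8 with the block and offsets and 9 with the 6 h libraries alone. In the difference, 2945 and 3339 of all genes were called higher and lower with the block, 3263 and 3322 with the block and offsets, and 946 and 1290 at a threshold of 0.01. Between the DMSO groups they were 1891 and 5241 with library size only, and 2190 were lower at 0.01.

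Apart from *DNMT3B* at 6 h, *TET2*, *DNMT3A* and *TDG* at 24 h and the difference of *TET2*, the replicate block changed no call of a member. No paired analysis was possible for DMSO at 24 h against 6 h because the numbers pair libraries only within a time point.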

Other observations

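Of 7 mesenchymal and osteoblast markers, 5 were tested, and 1 rose and 2 fell with NXP800 at 6 h while 1 rose and 4 fell at 24 h. Markers of other cell types were low. The summed level of 5 epithelial genes was 5.62 to 7.07 CPM per library in DMSO at both times and in NXP800 at 6 h, and 10.1 to 10.2 CPM in NXP800 at 24 h. The epithelial adhesion gene *EPCAM*, the 1 gene of that list that was tested, rose at 24 h by 0.81 on the log2 scale (adjusted p = 4.85e-06 by edgeR's quasi-likelihood test). The summed level of 6 blood and endothelial genes was 0.198 to 0.977 CPM over the 12 libraries. Its 1 tested gene, *PECAM1*, with 5 to 29 counts per library, fell at 6 h (log2 fold change -1.17, adjusted p = 0.0157 by the same test) and did not pass at 24 h (-0.56, adjusted p = 0.271).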
